A study of Homo sapiens with 28 samples.

Results

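Keratins 7, 8, 18 and 19 are the intermediate filament proteins of simple epithelia, and the accessibility of the chromatin at their genes was followed through adaptation of an ovarian cancer cell line to olaparib, an inhibitor of PARP enzymes. Accessibility was measured by ATAC-seq, in which a transposase inserts sequencing adapters into open DNA. The members were the consensus peaks that overlap the bodies of KRT7, KRT8, KRT18 or KRT19 or the 20 kb on either side. They numbered 23 of the 105048 peaks of the table. The measurements are accessibility; neither RNA nor protein of the keratins was measured in these files.

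Kuramochi is an established ovarian cancer cell line, labelled epithelial and BRCA2-mutant, and every group carries that genotype. T5 to T320 are 7 populations, each named after the dose in uM (5, 10, 20, 40, 80, 160 or 320) of olaparib to which it had adapted and was exposed. P10 and P320 are drug-naive cells exposed to 10 or 320 uM for 9 days, which the labels call persister cells. C is the untreated population. Cells of C and of T5 to T320 had been sorted by the surface proteins CD24 and CD44, and the profile kept from T5 to T320 was low for the first and high for the second. The labels name no such step for the P groups, so sort and exposure cannot be told apart where P is set against T or C. Where T is set against C, the part of the sort profile was not tested. Each group has 2 libraries; the labels do not say that these came from separate cultures, so p-values measure the spread between libraries, which may be technical. The other 8 of the 28 labelled samples were not analysed here. They are T320 cells and T320W cells, which had 120 drug-free days, each with and without drug.

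Total counts in peaks lay between 9627970 and 29699950 per library, and the 23 keratin peaks held between 0.0294% and 0.0398% of them. Values are counts per 1000000 counts (CPM), with library sizes scaled by trimmed mean of M-values (TMM). Gained and lost are used of peaks past an adjusted p of 0.05 (edgeR's quasi-likelihood test, Benjamini-Hochberg over all 105048 peaks) whose log2 fold change reached 1 upward or downward; such peaks are said to be called. All adjusted p-values below come from that test, and log2 fold changes are given ± their standard error. Of the 16 epithelial marker genes, 14 had a peak within 1 kb of a gene end, here called a gene-end peak, and their summed level was 157 to 159 CPM in T320, 379 to 396 CPM in P320 and 298 to 325 CPM in C. None of the 5 squamous markers had one, and 9 of the 14 fibroblast and mesenchymal markers did. Those 9 summed to 166 to 205 CPM in T320, 179.6 to 183 CPM in P320 and 111 to 146 CPM in C. The part of these lists in the keratin results was not tested. In bulk cells, a change in the share of cells with an open site and a change in how open it is per cell cannot be told apart.

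Keratin filaments are obligate heteropolymers of a type II and a type I chain. KRT8 is the type II and KRT18 the type I chain of the pair found in nearly all simple epithelia, and their genes lie side by side on chromosome 12. KRT7, a type II chain, is known from the epithelia of the female genital tract and from many carcinomas that arise there. KRT19, a type I chain that lacks nearly all of the usual tail domain, lies among the other type I keratin genes on chromosome 17. The filaments are anchored at desmosomes and hemidesmosomes, and in an epithelial to mesenchymal transition carcinoma cells typically lower keratins and raise vimentin, another intermediate filament protein.

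In the RefSeq gene table for GRCh38.p14, KRT7 spans chr12:52233243-52255853, KRT8 chr12:52897191-52949860, KRT18 chr12:52948855-52952906 and KRT19 chr17:41523617-41528308. The listed bodies of KRT8 and KRT18 overlap by their ends, and 5 peaks belong to the windows of both genes. The KRT7 window held 7 peaks, the KRT8 window 12, the KRT18 window 6 and the KRT19 window 3. KRT7 had no peak within 1 kb of either end of its body; its nearest outside the body lay 1.7 kb below the low-coordinate end. "Below" and "above" refer to chromosome coordinates, since the gene table used here gives no strand, and exon positions were not used.

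The listed KRT8 start carries sequence that can be read beside its accessibility. The RefSeq promoter table for GRCh38.p14 lists KRT8 on the minus strand with its first transcribed base at 52926469, and the 300 bases around that start (chr12:52926420-52926719) lie wholly within the peak at chr12:52924434-52927900, called here the listed KRT8 start peak. That peak lies 22.0 kb inside the high-coordinate end of the KRT8 body. A gene can have several starts, of which the table lists 1. Whether other members lie over other KRT8 starts was not examined. The sequence is shown because the listed KRT8 start is the single keratin start for which a promoter entry was matched. It is printed 5′ to 3′ on the minus strand, with letters that match the core of an ETS factor motif (CCGGAA, here on the opposite strand as TTCCGG) and the core of a TEAD factor motif (GGAATG) in capitals.
KRT8: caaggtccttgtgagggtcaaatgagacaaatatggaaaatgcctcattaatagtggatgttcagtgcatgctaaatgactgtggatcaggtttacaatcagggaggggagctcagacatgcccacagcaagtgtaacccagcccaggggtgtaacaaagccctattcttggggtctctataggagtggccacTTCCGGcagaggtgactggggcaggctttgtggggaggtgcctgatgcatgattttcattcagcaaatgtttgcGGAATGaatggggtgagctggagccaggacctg
The first capitals begin at base 194 and the second at base 268 of the window. On either strand, CCGGAA was found in 17.2% and GGAATG in 14% of the 34943 listed promoters of that length, so both are common letters. Also searched on both strands and not found in this window were TGANTCA (AP-1, in 7.72% of the promoters), GGGCGG (SP1, 44.9%), CACCTG (E-box, 20.6%), AACCNGTT (grainyhead-like, 1.73%) and TATAAA (the element bound by TBP, 11.6%). The motifs do not overlap each other here, and a match is a description of letters, not of a bound site.

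Summed over its peaks, each locus was highest in a different population. KRT7 peaks summed to 106 and 118 CPM in T10 and 61.7 and 69.8 CPM in C, and T10 was the highest of the 10 groups and did not overlap the next, P10 (82.4 and 84.3 CPM). C was the lowest group for KRT7, but each neighbouring pair of groups below T10 overlapped. The 13 peaks of the KRT8 and KRT18 windows summed to 306 and 303 CPM in P320 and 219 and 237 CPM in C. P320 was again clear of all other groups, of which T160 came next at 232 ± 19.7 CPM (SD, n = 2), and T5 was lowest at 175 ± 24.6 CPM (SD, n = 2); all neighbours from T5 to T160 overlapped. The 3 KRT19 peaks summed to 31.8 and 31.7 CPM in T320, 66.5 and 67.3 CPM in P10 and 55.8 and 52.2 CPM in C. T320 was the lowest and P10 the highest group, each apart from its neighbour, while C and T10 overlapped just under P10. Most of the KRT19 sum came from a peak 19.1 kb above the gene that overlaps LINC00974. That peak averaged 24.9 CPM in T320, 57.1 CPM in P10 and 39.4 CPM in C. The peak at the KRT19 end itself averaged 3.16 CPM in T320, 5.11 CPM in P10 and 5.08 CPM in C. Such sums weight wide and strong peaks most and were not tested.

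**Figure D1:**
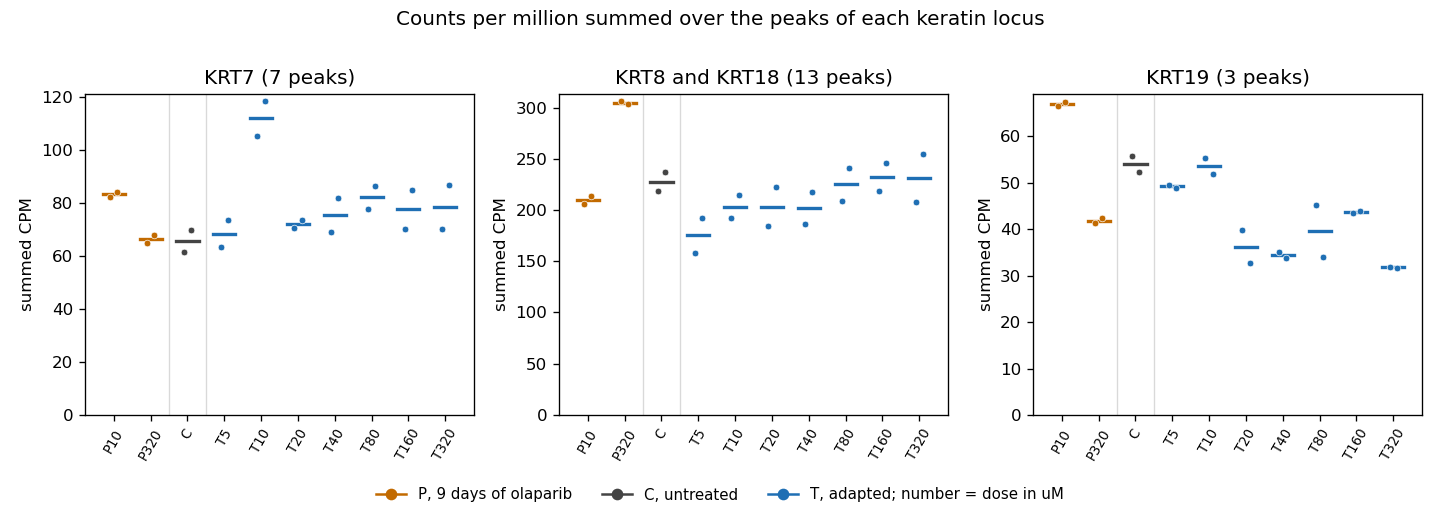
CPM summed over the 7 KRT7, 13 KRT8 and KRT18 and 3 KRT19 peaks (y axis) in P10, P320, C and T5 to T320 (x axis); points are libraries and bars the mean of 2 libraries. T10 stands highest for KRT7, P320 for KRT8 and KRT18, and T320 lowest for KRT19.

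Per length, the strongest KRT7 peak lay inside the gene at chr12:52243164-52244864, at 21.1 CPM per kb averaged over the 20 libraries, and the weakest of all 23 lay at the KRT19 end, at 3.28 CPM per kb. The KRT18 body peak reached 16.0 and the wider listed KRT8 start peak 8.34 CPM per kb. The members nearest the limit of the windows lay 19.4 kb above KRT8 and 19.1 kb from KRT7 and KRT19. The nearest peaks outside the limit lay between 22.3 and 50.9 kb from the genes, and ranged from 2.25 to 59.7 CPM in T320, 3.86 to 75.8 CPM in P320 and 3.29 to 59.5 CPM in C.

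Few keratin peaks were called in any comparison with C. In the adapted populations, 0 of the 23 were called in T5 (9.19% of all peaks; 5 of 23 at an unadjusted p under 0.05, and 0 by DESeq2), 2 in T10 (17.7% of all peaks), 2 in T20 (24.5%), 3 in T40 (25.2%), 3 in T80 (26%), 3 in T160 (23.5%) and 2 in T320 (30.5%). In the drug-naive cells, 3 were called in P10 (22.1% of all peaks) and 3 in P320 (11.8%). At 2 or 3 of 23, the members' share was below that of all peaks from T10 to T320 and in P10, and near it in P320. Against C, the median log2 fold change of the 23 was 0.04 in T320, 0.07 in P10 and 0.10 in P320. Over all peaks it was -0.01, -0.10 and -0.11, and over all gene-end peaks 0.10, 0.14 and 0.38. In P320, 14% of gene-end peaks were gained and 1.1% lost. The peaks at the low end of KRT8 and at both ends of KRT18 are gene-end peaks. In all, 9 of the 23 were called in at least 1 of the 9 comparisons with C, and 10 in no comparison of any kind. All comparisons with C share the same 2 untreated libraries.

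**Figure D2:**
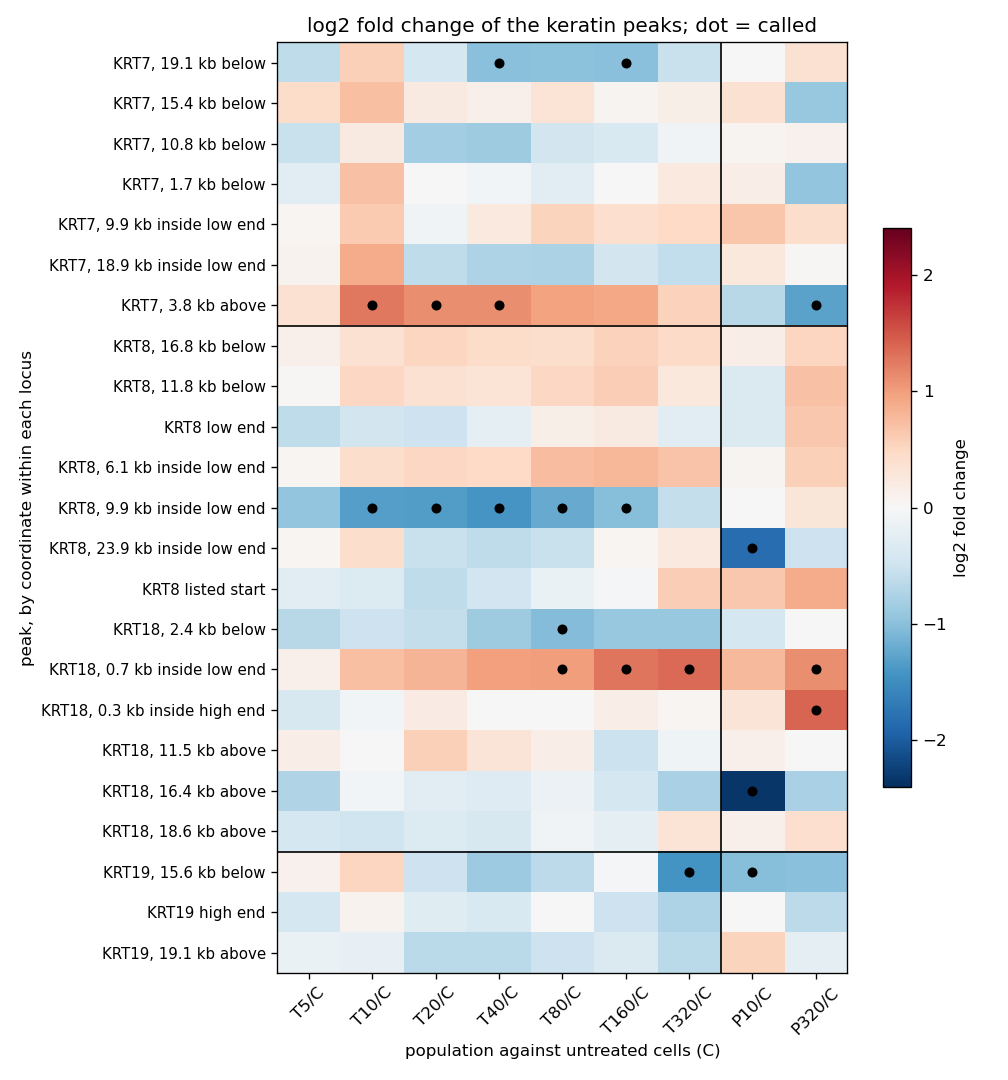
Log2 fold change (colour) of the 23 keratin peaks (y axis, named by gene and distance) in 9 comparisons with untreated cells (x axis); a black dot marks a called peak and lines separate the 3 loci and the P from the T populations. The peak inside KRT8, lost from T10 to T160, has 5 dots, and the KRT18 body peak (0.7 kb inside the low end) and the peak 3.8 kb above KRT7 have 4 each.

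The KRT18 body peak was gained in T80, T160, T320 and P320. It lies at chr12:52949520-52950171, 0.7 kb inside the low-coordinate end of KRT18 and across the listed high-coordinate end of KRT8, so that its counts cannot be given to a single gene. Along the adapted series it had 6.99 and 5.42 CPM in T5, 8.16 and 10.4 CPM in T10, 10.7 and 9.32 CPM in T20, 10.9 and 11.5 CPM in T40, then 9.25 and 13.4 CPM in T80, 13.2 and 14.5 CPM in T160 and 13.2 and 15.9 CPM in T320. The drug-naive cells had 8.56 and 10.9 CPM in P10 and 13.4 and 11.3 CPM in P320, against 5.09 and 6.18 CPM in C. From T10 upward, and in both P groups, each library was above both C libraries, whereas T5 overlapped C. The log2 fold change against C was 1.01 ± 0.24 in T80 (adjusted p = 0.00254), 1.29 ± 0.23 in T160 (adjusted p = 0.000423), 1.36 ± 0.23 in T320 (adjusted p = 0.000152) and 1.12 ± 0.23 in P320 (adjusted p = 0.00264), all called. In T10, T20, T40 and P10 it was 0.71, 0.82, 0.98 and 0.77, under the fold minimum. The slope over the 7 adapted populations was 0.18 ± 0.04 log2 units per doubling of the dose (adjusted p = 0.0201), under the minimum of 0.25. T320 against P320 was 0.24 ± 0.22 (adjusted p = 0.379), and their libraries overlapped. The call in P320 was lost without C replicate 1 (0.99), with the window offset, an alternative in which the median shift of all peaks in the same 5 Mb is subtracted (0.93), and with TMM from gene-end peaks alone (0.65). The call in T80 was lost with the same settings (0.89, 0.77 and 0.85), with total-count scaling (0.97) and without T80 replicate 2 (0.68). Those in T160 and T320 were kept under each alternative run, and the mean of the adapted populations, 0.90 and not called, was called at 1.06 without C replicate 2.

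**Figure D3:**
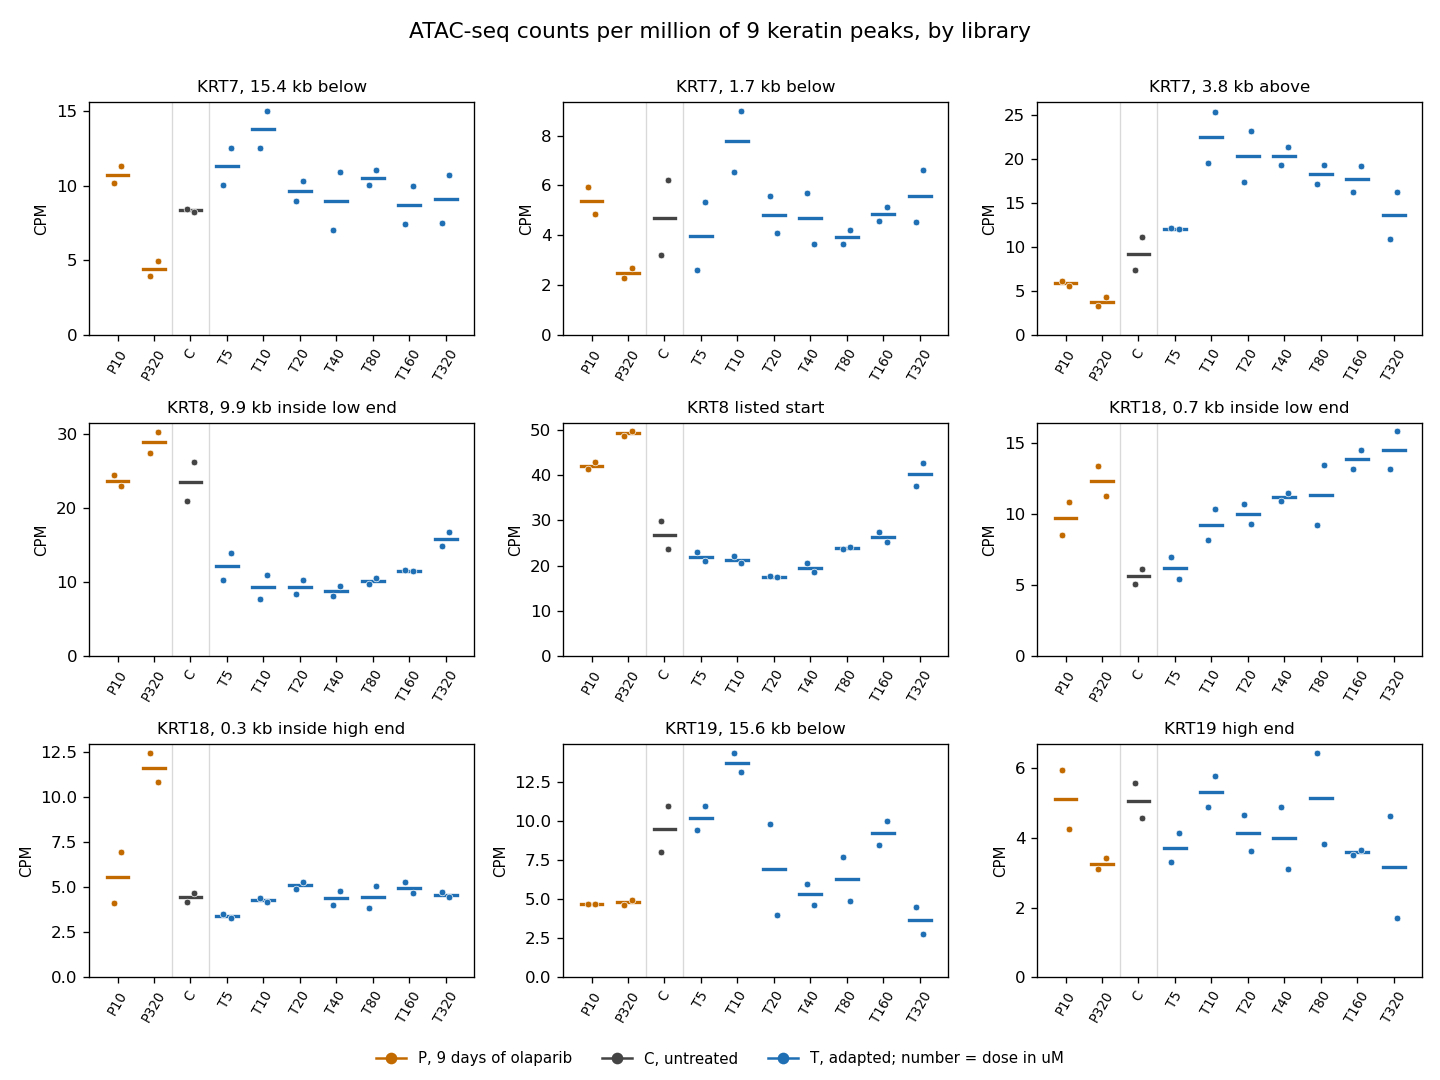
CPM (y axis of each panel) of 9 keratin peaks in P10, P320, C and T5 to T320 (x axis); points are libraries and bars the mean of 2 libraries. The KRT18 body peak is higher from T10 upward than in C, the peak inside KRT8 is low in each adapted population, and the listed KRT8 start peak is high in T320 and both P groups.

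The listed KRT8 start peak was called in no comparison. Along the adapted series it had 23 and 21.1 CPM in T5, 22.2 and 20.5 CPM in T10, 17.7 and 17.4 CPM in T20, 20.5 and 18.7 CPM in T40, then 23.7 and 24.0 CPM in T80, 27.5 and 25.2 CPM in T160 and 37.7 and 42.7 CPM in T320. The drug-naive cells had 41.2 and 42.8 CPM in P10 and 48.7 and 49.8 CPM in P320, against 30.0 and 23.6 CPM in C. T5 to T40 were below both C libraries, T80 and T160 overlapped C, and T320, P10 and P320 were above both. The log2 fold change against C was -0.60 ± 0.17 in T20 (adjusted p = 0.00894), 0.59 ± 0.16 in T320 (adjusted p = 0.00715), 0.65 ± 0.16 in P10 (adjusted p = 0.00544) and 0.88 ± 0.16 in P320 (adjusted p = 0.00117). These differences passed the adjusted p and not the fold minimum, except that the value in P320 was called at 1.06 without C replicate 1. T10 was -0.98 ± 0.16 against P10 (adjusted p = 0.000129), just under the fold minimum, and T320 was 0.61 ± 0.16 against T160 (adjusted p = 0.0341). With the window offset, T320 against C was 0.36 (adjusted p = 0.152), and P320 against C was 0.38 with TMM from gene-end peaks.

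A peak inside KRT8 was lost in the populations from T10 to T160. It lies at chr12:52907096-52908639, 9.9 kb inside the low-coordinate end of the gene and 18.6 kb from the listed start to the centre of the peak. Along the adapted series it had 10.3 and 13.9 CPM in T5, 7.80 and 11 CPM in T10, 8.41 and 10.3 CPM in T20, 8.10 and 9.49 CPM in T40, then 9.76 and 10.6 CPM in T80, 11.6 and 11.5 CPM in T160 and 14.9 and 16.8 CPM in T320. The drug-naive cells had 24.4 and 22.9 CPM in P10 and 27.4 and 30.3 CPM in P320, against 20.9 and 26.2 CPM in C. All 14 adapted libraries were below both C libraries, P10 overlapped C, and both P320 libraries were above it. Over the mean of the 7 adapted populations the log2 fold change was -1.12 ± 0.14 (adjusted p = 5.66e-06), the single member called there (22.6% of all peaks). It was called in T10, T20, T40, T80 and T160, at -1.32, -1.33, -1.42, -1.21 and -1.03, but not in T5 (-0.95, adjusted p = 0.00517) or T320 (-0.57, adjusted p = 0.03). The value was 0.00 ± 0.20 in P10 and 0.29 ± 0.20 in P320, where TMM from gene-end peaks turned it to -0.18. The value in P320 was 0.14 without C replicate 1, 0.46 without C replicate 2 and 0.10 with the window offset. Without C replicate 2 the calls over the mean (-0.94) and in T160 (-0.85) were lost. T10 was also lower than P10, by a log2 fold change of -1.32 ± 0.21 (adjusted p = 6.6e-05).

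**Figure D4:**
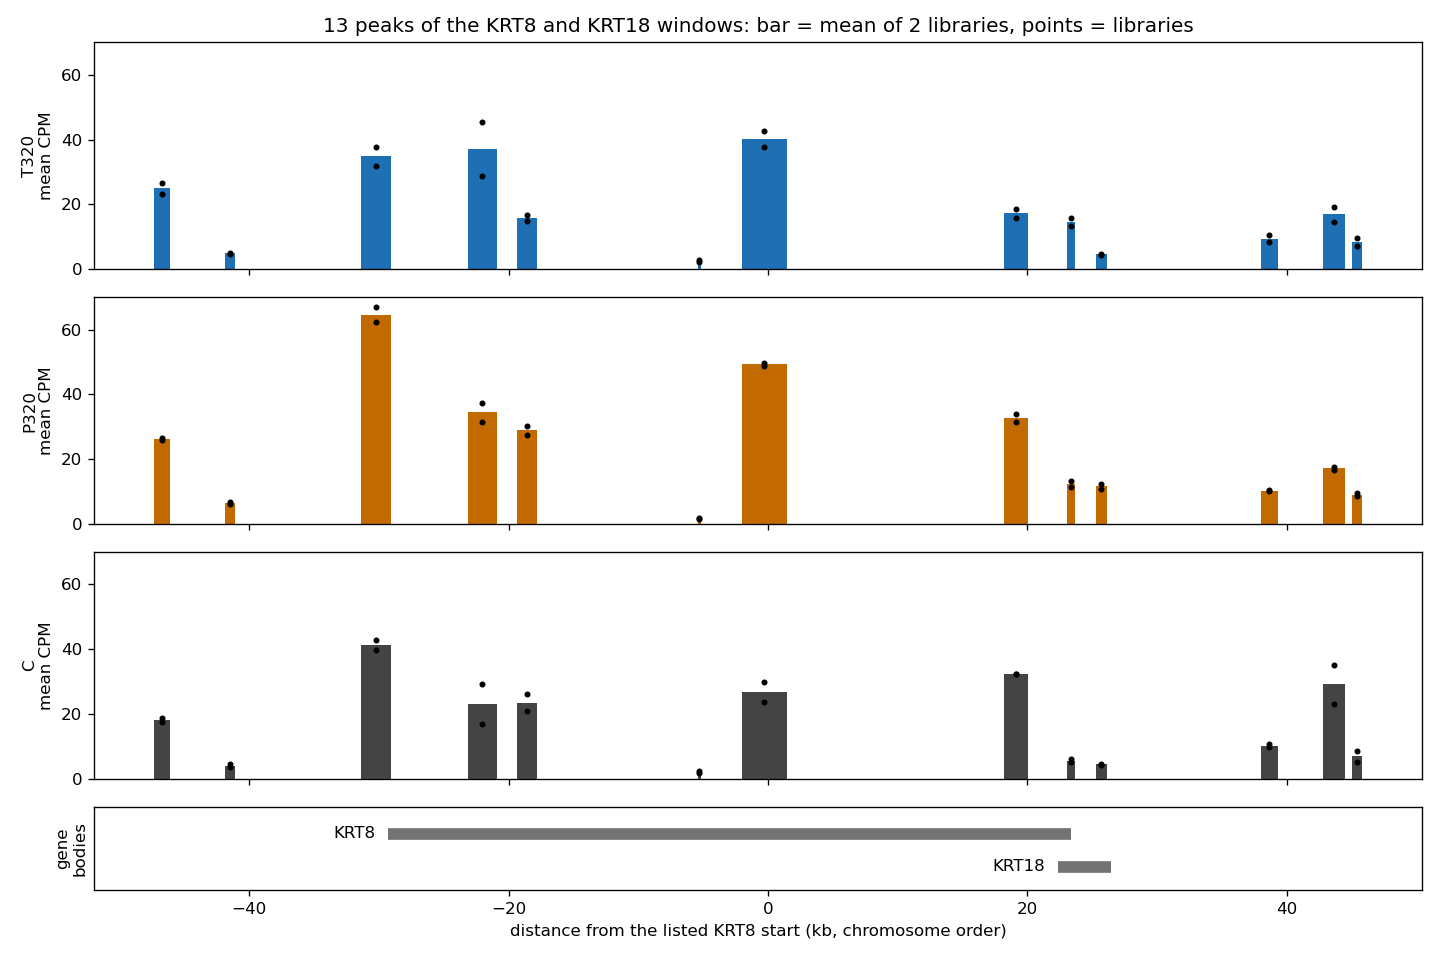
Mean CPM (y axis) of the 13 peaks of the KRT8 and KRT18 windows in T320, P320 and C, against distance in kb from the listed KRT8 start (x axis, chromosome order); bars are as wide as the peaks, points are the 2 libraries and grey lines the gene bodies. The tallest P320 bar is at the low end of KRT8, at 64.6 CPM.

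At the other end of KRT18 a peak was gained in P320 alone among the groups set against C. It lies at chr12:52951738-52952585, 0.3 kb inside the high-coordinate end of the gene, and had 12.5 and 10.8 CPM in P320, 4.10 and 6.97 CPM in P10 and 4.18 and 4.67 CPM in C. Both P320 libraries were above all 18 others, and the 14 adapted libraries ran from 3.30 over a median of 4.54 to 5.29 CPM. P320 against C was 1.39 ± 0.26 (adjusted p = 0.00124), and T320 against P320 was -1.35 ± 0.26 (adjusted p = 0.000309). P320 against P10 was 1.07 ± 0.25 (adjusted p = 0.00626), a call lost without P10 replicate 1 (0.74) or P320 replicate 1 (0.97), with total-count scaling (0.98) and with the window offset (0.97). With TMM from gene-end peaks all 3 calls were lost (0.91, -0.89 and 0.74). That scaling moves the median of all peaks in P320 against C to -0.59 (-0.11 otherwise). Without it, all gene-end peaks had medians of 0.38 in P320 against C, -0.40 in T320 against P320 and 0.33 in P320 against P10. The KRT18 high-end peak is itself a gene-end peak. The part of the scaling in its calls was not tested.

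The other KRT8 and KRT18 peaks varied less or in single groups, and the 5 named next were chosen after their values were seen. The low-coordinate end of KRT8 (chr12:52895113-52897419) had 62.3 and 66.9 CPM in P320 and 42.8 and 39.9 CPM in C, 0.65 ± 0.19 on the log2 scale, and was not called (adjusted p = 0.023). A peak 6.1 kb inside that end (chr12:52903301-52905538) was called in no comparison and averaged 37.1 ± 11.7 CPM in T320, 34.5 ± 4.12 CPM in P320 and 23 ± 8.71 CPM in C (SD, n = 2 each). A peak 2.4 kb below KRT18 (chr12:52944661-52946503) was below both C libraries in all 14 adapted libraries and was called in T80 (15.8 and 15.6 CPM, against 32.5 and 32.3 CPM in C; log2 fold change -1.05 ± 0.21, adjusted p = 0.000668). A peak 16.4 kb above KRT18 (chr12:52969276-52970935) was lost in P10, at 5.73 and 5.93 CPM, against 23.2 and 35.2 CPM in C (log2 fold change -2.33 ± 0.26, adjusted p = 1.78e-05). P320 had 17.7 and 16.5 CPM there and T10 24.4 and 31.6 CPM, so that P320 and T10 were both higher than P10, by log2 fold changes of 1.55 ± 0.25 and 2.27 ± 0.26 (adjusted p = 0.000482 and 3.75e-06). These calls and that of the peak below KRT18 were kept under each alternative run. The weak peak inside KRT8 at chr12:52921047-52921319 had 0.573 and 0.654 CPM in P10, against 1.89 and 2.45 CPM in C, from as few as 8 counts in a library; its call (-1.82) was lost without C replicate 2 (adjusted p = 0.0764), P10 replicate 1 (adjusted p = 0.0675) or P10 replicate 2 (adjusted p = 0.0501).

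At KRT7, a peak 3.8 kb above the gene was gained in T10, T20 and T40 and lost in P320. It lies at chr12:52259668-52261677 and overlaps no listed gene. Along the adapted series it had 12.1 and 12.1 CPM in T5, 19.6 and 25.4 CPM in T10, 17.5 and 23.3 CPM in T20, 19.4 and 21.4 CPM in T40, then 17.2 and 19.4 CPM in T80, 16.3 and 19.2 CPM in T160 and 11 and 16.3 CPM in T320. The drug-naive cells had 6.22 and 5.58 CPM in P10 and 3.35 and 4.31 CPM in P320, against 7.39 and 11.2 CPM in C. T5 to T160 lay above both C libraries, T320 overlapped C, and both P groups lay below it. The log2 fold change against C was called in T10 (1.26 ± 0.24, adjusted p = 0.000876), T20 (1.12 ± 0.24, adjusted p = 0.00135) and T40 (1.12 ± 0.24, adjusted p = 0.00132) and P320 (-1.29 ± 0.25, adjusted p = 0.00162). With the window offset the 3 gains fell under the fold minimum (0.88, 0.86 and 0.86), as did T20 and T40 with TMM from gene-end peaks (0.99 and 0.97). Without C replicate 1 the calls in T20 (0.87) and T40 (0.87) were lost, as was T20 without T20 replicate 2 (0.90) and the loss in P320 without C replicate 2 (-0.95).

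Set against each other at the same dose, adapted cells were higher than drug-naive cells at this KRT7 peak at both 320 and 10 uM. T320 against P320 was 1.84 ± 0.25 (adjusted p = 9.1e-06) and T10 against P10 was 1.93 ± 0.24 (adjusted p = 8.91e-06), and both calls were kept under each alternative run. In all, 4 of 23 members were called in T320 against P320 (34.2% of all peaks) and 5 in T10 against P10 (32.9%), shares below those of all peaks. The 4 were 3 KRT7 peaks, gained in T320, and the high-end peak of KRT18 given above. Of the KRT7 peaks, the one 15.4 kb below the gene (chr12:52216310-52217829) had 7.53 and 10.7 CPM in T320, against 3.95 and 4.94 CPM in P320 (log2 fold change 1.05 ± 0.25, adjusted p = 0.00179). The one 1.7 kb below (chr12:52230531-52231523) had 4.54 and 6.63 CPM in T320, against 2.29 and 2.71 CPM in P320 (log2 fold change 1.17 ± 0.37, adjusted p = 0.013). At both peaks T320 and P320 did not overlap, and both P320 libraries were below the C libraries (8.45 and 8.25 CPM and 3.20 and 6.22 CPM in C). Without T320 replicate 2 these calls were lost (0.76 and 0.86), likewise without P320 replicate 1 (0.82 and 0.98), and the first also in a fit of the 2 groups alone (0.98). In T10 against P10 there were 5 calls. They were the peak 3.8 kb above KRT7, the peak 16.4 kb above KRT18, the KRT13 gene-end peak and 2 of the peaks inside KRT8. These 2 were the peak lost from T10 to T160 (chr12:52907096-52908639) and the weak one (chr12:52921047-52921319). The weak one was higher in T10 (2.25 ± 0.48, adjusted p = 0.000961). The sort named for T and not for P cannot be told apart from adaptation in these comparisons.

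In the drug-naive cells, 2 KRT7 peaks were lower and 3 peaks of the KRT8 and KRT18 windows higher at 320 than at 10 uM. In P320 against P10, 5 of 23 members were called (13.8% of all peaks). The lower ones were the KRT7 peaks 15.4 kb and 1.7 kb below the gene, at 3.95 and 4.94 CPM in P320, against 10.2 and 11.3 CPM in P10, for the first and 2.29 and 2.71 CPM in P320, against 5.95 and 4.84 CPM in P10, for the second. Their log2 fold changes were -1.27 ± 0.24 (adjusted p = 0.00158) and -1.11 ± 0.36 (adjusted p = 0.0373), and the second call was lost without any 1 of the 4 libraries (-1.25 to -0.95). The higher ones were the KRT18 high-end peak, the peak 16.4 kb above KRT18 and a peak 11.8 kb below KRT8, with 6.21 and 6.87 CPM in P320, against 3.13 and 3.23 CPM in P10 (1.04 ± 0.27, adjusted p = 0.0111), whose call was lost without any 1 of the 4 libraries (0.97 to 1.12).

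The change between 10 and 320 uM, T320 against T10, differed from that of P320 against P10 at 5 of the 23 members, a share near that of all peaks (23.6%). These lay 19.1 kb below and 18.9 kb inside KRT7, 11.8 kb below KRT8, 16.4 kb above KRT18 and within 1 kb of KRT13. Each difference was negative, beside medians of -0.12 over all peaks and -0.39 over all gene-end peaks.

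Between adapted populations, the summed KRT7 peaks were higher in T10 than in T5 or T20. The 7 peaks summed to 68.5 CPM in T5, 112 CPM in T10 and 72.2 CPM in T20 (means of 2 libraries), and the T10 libraries overlapped neither T5 nor T20. Their median log2 fold change was 0.81 in T10 against T5 and -0.71 in T20 against T10, beside 0.02 over all peaks in both steps. The 127 other peaks within 1 Mb of KRT7 moved the same way, with medians of 0.62 and -0.48. The part of this regional shift in the KRT7 values was not tested beyond the window offset. In T10 against T5, 1 of 23 members was called (3.35% of all peaks), and in T20 against T10 1 (0.543%), both at KRT7. The first was the peak 19.1 kb below KRT7 (chr12:52213226-52214115), with 12.1 and 12.3 CPM in T10, against 5.04 and 5.67 CPM in T5 (log2 fold change 1.18 ± 0.22, adjusted p = 0.00445). The call was lost with the window offset (0.76), with TMM from gene-end peaks (0.99) and without T5 replicate 1, T5 replicate 2 or T10 replicate 2 (adjusted p = 0.0506, 0.0664 and 0.0535). The second was a peak inside KRT7 (chr12:52252153-52253208), with 4.5 and 2.65 CPM in T20, against 10.2 and 9.73 CPM in T10 (log2 fold change -1.5 ± 0.27, adjusted p = 0.0183). That call was lost with the window offset (adjusted p = 0.0562) and without T10 replicate 1, T10 replicate 2 or T20 replicate 2 (adjusted p = 0.0878, 0.141 and 0.439). No member was called in T40 against T20, T80 against T40 or T160 against T80 by edgeR or DESeq2 (0% of all peaks by edgeR at each step; 1, 0 and 1 members at an unadjusted p under 0.05). Over the dose trend 0 of 23 were called by edgeR or DESeq2 (5.72% of all peaks; 8 at an unadjusted p under 0.05). The peak 19.1 kb below KRT7 was also called lower than in C (6.89 and 9.34 CPM) in T40 (3.60 and 4.44 CPM, -1.01) and T160 (3.80 and 4.34 CPM, -1.0); both calls were lost without C replicate 2 (-0.76 and -0.76) and without the first replicate of the adapted group (-0.88 and -0.91). The strongest KRT7 peak, inside the gene at chr12:52243164-52244864, was called in no comparison and averaged 39.2 ± 5.01 CPM in T320, 37.6 ± 0.724 CPM in P320 and 28.1 ± 1.12 CPM in C (SD, n = 2 each).

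KRT19 showed no called change at the gene itself. The peak across its high-coordinate end (chr17:41527391-41528689) had 4.62 and 1.7 CPM in T320, 5.95 and 4.27 CPM in P10, 3.11 and 3.42 CPM in P320 and 5.58 and 4.57 CPM in C. The T320 libraries lay on both sides of the lower C library, and the 14 adapted libraries ran from 1.7 over a median of 3.98 to 6.45 CPM. The log2 fold change was -0.74 ± 0.39 in T320 (adjusted p = 0.139), 0.02 ± 0.37 in P10 (adjusted p = 0.976) and -0.63 ± 0.37 in P320 (adjusted p = 0.257). The value in T320 was -1.56 and called without T320 replicate 1 and -0.13 without T320 replicate 2. With TMM from gene-end peaks the value in P320 was -1.13 (adjusted p = 0.0516). With counts of 38 to 148 per library this was among the thinnest of the described peaks.

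The KRT19 window also holds a gene-end peak of KRT13, a type I keratin of stratified mucosa. It lies within 1 kb of an end of KRT13 but overlaps no listed gene, at chr17:41506269-41507972, 15.6 kb below KRT19. It had 4.54 and 2.78 CPM in T320, 8.51 and 10.0 CPM in T160, 14.4 and 13.2 CPM in T10, 4.68 and 4.71 CPM in P10, 4.62 and 4.98 CPM in P320 and 8.04 and 11 CPM in C. Both T320 libraries and all 4 P libraries lay below both C libraries. It was lost in T320 (-1.43 ± 0.35, adjusted p = 0.00272) and in P10 (-1.03 ± 0.33, adjusted p = 0.022), and P320 was just short of the call (-1.0 ± 0.32, adjusted p = 0.0377). T320 was also lower than T160 (-1.38 ± 0.35, adjusted p = 0.0245), the single member called in that step (3.86% of all peaks), and T10 was higher than P10 (1.55 ± 0.33, adjusted p = 0.000893). The T320 call was lost without T320 replicate 2 (-1.08, adjusted p = 0.0682). The P10 call was lost without C replicate 2, P10 replicate 1 or P10 replicate 2 (adjusted p = 0.199, 0.104 and 0.103), with DESeq2 (-0.99) and with DESeq2's size factors in edgeR (-0.99). The call against T160 was lost without either T160 library or T320 replicate 2 (-1.49, -1.25 and -1.03), with TMM from gene-end peaks (-1.27) and with the window offset (-1.09). The third peak of the window, 19.1 kb above KRT19 (chr17:41547408-41549798), was called in no comparison and averaged 24.9 ± 3.28 CPM in T320, 57.1 ± 1.73 CPM in P10 and 39.4 ± 3.92 CPM in C (SD, n = 2 each).

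Peaks around the keratin loci moved as well in some populations. The 1 Mb surroundings of KRT7 and of KRT8 and KRT18 overlap, so the sets given for them share peaks. Among the other peaks within 1 Mb, 127 at KRT7, 139 at KRT8 and KRT18 and 122 at KRT19, the median log2 fold change of T10 against C was 0.65, 0.42 and 0.55, beside 0.02 over all peaks. The 7 KRT7 members had a median of 0.70 in T10, close to that of their neighbours, and those of KRT8 and KRT18 one of -0.06. In T320 the neighbours' medians were 0.19, 0.26 and 0.36, and the members' 0.14, 0.23 and -0.74. At KRT19 the neighbours were shifted furthest in T160, at 0.62, where the members' median was -0.35. DNA copy number was not measured in these files, and the part of such regional shifts in the keratin values was not tested beyond the window offset.

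Most other keratin genes had no gene-end peak, so the counts of calls below rest on few peaks. Of 24 other type II keratins 6 were measured at a gene end, with 0 gained and 1 lost in T320 (6.12% of all gene-end peaks were gained and 6.78% lost), 2 gained and 1 lost in P10 (9.89% and 2.32%), and 0 gained and 1 lost in P320 (14% and 1.1%). The gains in P10 were KRT78, an epidermal type keratin, at 1.95 ± 0.35 (adjusted p = 0.000505), and KRT2, a keratin of the upper epidermis, at 1.29 ± 0.24 (adjusted p = 0.000688). KRT4, the partner of KRT13 in stratified mucosa, was lost in P10 and P320 and had 1.76 ± 0.20 CPM in P10, 1.37 ± 0.206 CPM in P320 and 3.93 ± 1.04 CPM in C (SD, n = 2 each). Of 27 other type I keratins 8 were measured, with 0 gained and 2 lost in T320 and 0 gained and 1 lost in P10 and in P320. Besides KRT13 the single loss in T320 was KRT17 (-1.07 ± 0.42, adjusted p = 0.0454), a keratin induced in injured epidermis. The medians of the type II and type I lists were -0.16 and -0.07 in T320, beside 0.10 over all gene-end peaks, and -0.13 and -0.56 in P320, beside 0.38. KRT78 and KRT2 were called under each alternative run. The call of KRT17 was lost with total-count scaling, with TMM from gene-end peaks, in a fit of the 2 groups alone and without C replicate 1, T320 replicate 1 or T320 replicate 2 (adjusted p = 0.0605 to 0.23), and that of KRT4 without C replicate 2 in P10 and P320 (-0.86 and -1.22), without either P10 library and without P320 replicate 2 (adjusted p = 0.05, 0.0958 and 0.0678).

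Among the other intermediate filament genes, the vimentin gene was gained and 3 others were lost in T320. Of 15 genes 12 were measured, with 1 gained and 3 lost in T320 (6.12% of all gene-end peaks were gained and 6.78% lost) and a median of 0.34, beside 0.10 over all gene-end peaks. VIM had 48.0 ± 10.1 CPM in T320 and 20.7 ± 4.97 CPM in C (SD, n = 2 each; log2 fold change 1.21 ± 0.22, adjusted p = 0.000244). The losses were DES, the filament of muscle, at -2.15 ± 0.64, NES, a filament of progenitor cells, at -1.34 ± 0.19, and LMNA, which encodes the A-type nuclear lamins, at -1.02 ± 0.20 (adjusted p = 0.011, 2.29e-05 and 0.000571). In P320, 3 were gained and 0 lost (14% and 1.1% of all gene-end peaks), namely SYNM, which encodes synemin, a linker of filaments, at 1.89 ± 0.23, INA, a neuronal filament, at 1.34 ± 0.23, and BFSP1, a lens filament, at 1.08 ± 0.22 (adjusted p = 5.17e-05, 0.000546 and 0.00218). VIM in P320 was 0.98 ± 0.22 (adjusted p = 0.00416), short of the fold minimum, and was called at 1.01 by DESeq2. With the window offset 0 of the 12 were called in T320 (7 of the 12 had an unadjusted p under 0.05 without it), with VIM at 0.69, DES at -0.98, NES at -0.64 and LMNA at -0.31. VIM and DES lost their calls also without C replicate 1 (0.99 and -1.83) or T320 replicate 2 (0.97 and -1.22), and LMNA without C replicate 2 (-0.71) or T320 replicate 1 (-0.88). In P320 the call of SYNM was kept under each alternative run, INA (0.85) and BFSP1 (0.62) were lost with TMM from gene-end peaks, and BFSP1 also with the window offset (0.87) and without C replicate 1 (0.85).

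Of the genes of desmosomes, hemidesmosomes and keratin linkers, 7 were lower in T320 than in P320. Of 20 genes 17 were measured, with 0 called in T320 against C by edgeR or DESeq2 (2 higher and 6 lower at an unadjusted p under 0.05; 6.12% of all gene-end peaks were gained and 6.78% lost), 2 gained in P10 (9.89% of all gene-end peaks) and 3 gained in P320 (14%), both near the share of all gene-end peaks. PLEC, which encodes plectin, the linker of keratin filaments to hemidesmosomes, had 103 ± 9.59 CPM in P10, 101 ± 0.736 CPM in P320 and 33.5 ± 5.52 CPM in C (SD, n = 2 each), or 1.62 ± 0.17 and 1.58 ± 0.17 against C (adjusted p = 1.54e-05 and 2.4e-05). The other gain in P10 was ITGB4, the hemidesmosomal integrin, at 1.22 ± 0.28, and those in P320 were DSG2, a desmosomal cadherin, at 1.06 ± 0.31, and TCHP, which encodes the keratin-binding protein trichoplein, at 1.32 ± 0.25 (adjusted p = 0.00293, 0.0221 and 0.00123). In T320 against P320, 7 of the 17 were lost and 0 gained, with a median of -0.86 (20.2% of all gene-end peaks were lost and 4.54% gained, with a median of -0.40), and 2 were called with TMM from gene-end peaks. With that scaling 1 of the 17, PLEC, was called in P320 against C, with DSG2 at 0.58 and TCHP at 0.84. DSG2 lost its call without any 1 of the 4 libraries (adjusted p = 0.0674 to 0.114), and with total-count scaling (0.99), and ITGB4 with the window offset (0.99).

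Of 14 measured epithelial markers 6 were lost in T320, and of 21 measured regulators of epithelial genes 5 were gained and 2 lost in P10 (9.89% of all gene-end peaks were gained and 2.32% lost). Of these 21, from a list of 28, 1 was gained and 2 were lost in T320 (6.12% and 6.78%), and 5 were gained and 0 lost in P320 (14% and 1.1%). ELF3, an epithelial ETS factor, was lost in T320 at 14.8 ± 1.66 CPM, against 35.4 ± 3.36 CPM in C (SD, n = 2 each; log2 fold change -1.27 ± 0.18, adjusted p = 3.19e-05), and ETS2, a widely expressed ETS factor, was gained (1.18 ± 0.24, adjusted p = 0.000703). GRHL1, a grainyhead-like factor of epithelia, was gained in P10 (1.52 ± 0.31) and P320 (1.83 ± 0.31; adjusted p = 0.00127 and 0.000564). Of the epithelial markers 0 were called in P10 or P320 by edgeR or DESeq2 (5 and 6 at an unadjusted p under 0.05). Of the 7 Mullerian and serous markers 6 were lost in T320, and of the 9 mesenchymal markers 3 were gained. Of the 4 measured blood markers 3 were gained in T320 and summed to 46.1 to 55.6 CPM in T320 and 25.8 to 28.9 CPM in C, and of 3 endothelial markers 2 were lost. With the window offset 3 of the epithelial markers and 1 endothelial marker were called in T320, ELF3 was at -0.46 and ETS2 at 0.83; ETS2 also lost its call without C replicate 1 (0.79) and without T320 replicate 2 (0.94), whereas GRHL1 was called in P10 and P320 under each alternative run. Without T320 replicate 2, 1 regulator, 0 mesenchymal markers, 1 blood marker and 1 endothelial marker were called in T320, and without C replicate 2, 1 mesenchymal marker. The 5 regulators called in P320 were 2 with TMM from gene-end peaks and 3 without C replicate 1 or P320 replicate 1. Whether the lists differ from the keratins was not tested.

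Across the 10 group means, the gene-end peaks most like the listed KRT8 start peak lay at SH3BP2, PPM1M and NDST1 (Pearson's r of 0.978, 0.967 and 0.958 on log2 of mean CPM + 1, of 15288 gene-end peaks on other chromosomes or over 1 Mb away). Those most like the KRT18 body peak lay at NOCT, VIM and a shared end of YBX3 and LOC124902876 (r of 0.988, 0.967 and 0.964). For the KRT19 end peak the highest values were lower, at C11orf52, PLEKHM3 and SCN2B (0.811, 0.796 and 0.772). These values are the top of many and share libraries, depth and scaling, and are given as a description.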

How the data were processed

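The authors deposited a table of 105048 consensus peaks with raw counts per peak for 20 libraries, per the labels' sample descriptions; every column of counts belonged to a labelled sample. Per the labels' protocols, about 50000 cells per library were processed by Omni-ATAC and sequenced paired-end. The submitters' processing notes name MACS2, Bowtie2, HOMER 4.1, Picard, Trim Galore, DESeq2, SAMtools and 2 versions of deepTools (3.1, 3.5.1), along with GRCh38, without their roles; the treatment of duplicates, any shift of reads for the transposase and the peak settings are not given in the sources used here. Coordinates are as the file gives them.

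From the counts, TMM factors, robust dispersions and quasi-likelihood tests were computed with edgeR 4.0.16 in R 4.3.3 over all 10 groups, which share 1 estimate of the spread, so that the precision of each group of 2 libraries rests partly on the others. The default low-count filter removed 0 peaks. Named comparisons were set as contrasts with Benjamini-Hochberg adjustment over all peaks. The dose trend was fitted on counts summed per adapted population, against log2 of the dose, with a minimum slope of 0.25. The procedure was run on simulated counts, drawn independently per library with the spread of the fit. Such counts hold no shared deviation of same-numbered libraries, so that run could not test its effect on the calls. Depth ran from 9627970 to 29699950 counts per library. Replicates differed by more than sampling noise in every group. The chi-square per peak was 2.11 in P10 and 2.22 in P320, and ran from 4.00 in T160 to 8.48 in C among the others. The shared estimate of the spread does not follow these differences between groups.

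Peaks described in full were, for each gene, the peak over the listed start (KRT8) or otherwise the gene-end peak with most counts (KRT18 and KRT19; KRT7 had none), and each member called in T320 or P320 against C, in T320 against P320, over the mean of the adapted populations or over the trend, 9 in all. Where a list gene had several gene-end peaks, the one with most counts was used. The keratins and the gene lists were chosen with earlier results of these data known. Alternatives were total-count scaling, DESeq2's size factors, TMM from gene-end peaks, an offset per 5 Mb window for regional shifts, the replicate number as a block, DESeq2 1.42.0, 2 other filters, other windows, no fold minimum, fits restricted to a pair of groups, and fits with a library left out. Positions and names come from RefSeq for GRCh38.p14. Figures were drawn with matplotlib 3.10.9.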

Additional observations from a re-analysis of the deposited data

Results flagged for a closer look

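The change between 10 and 320 uM differed between adapted and drug-naive cells at 5 of the 23 keratin peaks, a share near that of all peaks (23.6%), by a test of the difference itself (edgeR's quasi-likelihood test of T320 minus T10 against P320 minus P10, Benjamini-Hochberg over all peaks). All 5 differences were negative, that is, 320 uM cells stood lower relative to 10 uM cells among the adapted than among the drug-naive cells. The median difference was also negative over all peaks (-0.12) and over all gene-end peaks (-0.39). The other peaks within 1 Mb had median differences of -0.66 at KRT7 (6 called with a positive and 29 with a negative difference, of 127), -0.35 at KRT8 and KRT18 and -0.30 at KRT19, and their part in the 5 was not tested. The neighbours of KRT7 and of KRT8 and KRT18 share peaks. The sort named for the adapted cells cannot be told apart from adaptation here.

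The peak 16.4 kb above KRT18 (chr12:52969276-52970935) had 14.5 and 19.3 CPM in T320, against 24.4 and 31.6 CPM in T10, and 17.7 and 16.5 CPM in P320, against 5.73 and 5.93 CPM in P10. The difference was -2.28 ± 0.35 on the log2 scale (adjusted p = 0.000179). The KRT13 gene-end peak (chr17:41506269-41507972) had 4.54 and 2.78 CPM in T320, against 14.4 and 13.2 CPM in T10. It had 4.62 and 4.98 CPM in P320, against 4.68 and 4.71 CPM in P10. The difference there was -1.98 ± 0.47 (adjusted p = 0.00503). The peak 19.1 kb below KRT7 (chr12:52213226-52214115) had 5.91 and 5.42 CPM in T320, against 12.1 and 12.3 CPM in T10, and 11.2 and 9.92 CPM in P320, against 7.36 and 8.98 CPM in P10, a difference of -1.48 ± 0.31 (adjusted p = 0.0019). These 3 were called under each alternative run.

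The peak 11.8 kb below KRT8 (chr12:52884602-52885408) had 4.97 and 4.70 CPM in T320, against 6.85 and 4.65 CPM in T10, and 6.21 and 6.87 CPM in P320, against 3.13 and 3.23 CPM in P10, a difference of -1.28 ± 0.38 (adjusted p = 0.0187). The peak inside KRT7 at chr12:52252153-52253208 had 3.68 and 3.50 CPM in T320, against 10.2 and 9.73 CPM in T10, and 5.05 and 5.94 CPM in P320, against 6.48 and 6.45 CPM in P10, a difference of -1.24 ± 0.37 (adjusted p = 0.0198). Both calls were lost with the window offset (-0.99 and -0.95), with TMM from gene-end peaks (-0.87 and -0.83) and without T320 replicate 2, P10 replicate 1, P10 replicate 2 or P320 replicate 2, the first of them also without T10 replicate 1 (adjusted p = 0.0536 to 0.0847 for the first and 0.059 to 0.0737 for the second).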

How the results depend on the processing

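Counts of keratin peaks called are given below with the count as reported in parentheses, where they moved by over 1.5 times; the cause was not tested, except that wider or narrower windows hold more or fewer peaks and that no fold minimum asks for less. With no fold minimum the counts were 3 (0) in T5 against C, 6 (2) in T10 against C, 7 (2) in T20 against C, 8 (3) in T40 against C, 9 (3) in T80 against C, 7 (3) in T160 against C, 9 (2) in T320 against C, 8 (3) in P10 against C, 8 (3) in P320 against C, 7 (1) in the mean of the adapted populations, 9 (4) in T320 against P320, 9 (5) in T10 against P10, 2 (1) in T10 against T5, 2 (1) in T20 against T10, 2 (1) in T320 against T160 and 2 (0) in the trend. With the window offset the counts were 1 (2) in T10 against C, 1 (2) in T20 against C, 5 (3) in T40 against C, 5 (3) in P320 against C, 2 (1) in the mean of the adapted populations, 3 (5) in P320 against P10, 0 (1) in T10 against T5, 0 (1) in T20 against T10, 0 (1) in T320 against T160 and 3 (5) in the difference of dose changes. With the replicate number as a block and the window offset the counts were 1 (2) in T10 against C, 1 (2) in T20 against C, 5 (3) in T40 against C, 5 (3) in T160 against C, 4 (2) in T320 against C, 5 (3) in P320 against C, 2 (1) in the mean of the adapted populations, 0 (1) in T10 against T5 and 3 (5) in the difference of dose changes. With windows of 50 kb the counts were 4 (2) in T10 against C, 5 (3) in T80 against C, 5 (3) in T160 against C, 6 (2) in T320 against C, 6 (3) in P10 against C, 6 (3) in P320 against C, 8 (5) in T10 against P10, 8 (5) in P320 against P10 and 2 (1) in T320 against T160. With TMM from gene-end peaks the counts were 1 (2) in T20 against C, 5 (3) in P320 against C, 0 (1) in T10 against T5, 2 (1) in T20 against T10 and 0 (1) in T320 against T160. With windows of 5 kb the counts were 1 (2) in T320 against C, 1 (3) in P10 against C, 3 (5) in T10 against P10, 2 (5) in P320 against P10, 0 (1) in T10 against T5 and 0 (1) in T320 against T160. With total-count scaling the counts were 3 (5) in P320 against P10 and 2 (1) in T20 against T10. With the replicate number as a block the count was 2 (1) in T20 against T10. Without the T160 population the count was 1 (0) in the trend. Leaving out 1 library in turn, the counts ranged from 0 to 1 in T5 against C, 1 to 4 in T20 against C, 2 to 5 in T80 against C, 1 to 3 in P10 against C, 3 to 6 in P320 against C, 1 to 2 in the mean of the adapted populations, 4 to 6 in T320 against P320, 5 to 6 in T10 against P10, 3 to 3 in P320 against P10, 0 to 2 in T10 against T5, 0 to 2 in T20 against T10, 0 to 1 in T320 against T160 and 3 to 5 in the difference of dose changes.

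Of the log2 fold changes recomputed, the strict filter and no filter changed no call. Of 53 values each, DESeq2 and DESeq2's size factors ended the call of 1, total-count scaling of 3, the window offset of 12 and TMM from gene-end peaks of 12. Of 280 values with 1 library left out, 52 lost their call and 3 became called. The single reversed direction was that of the peak inside KRT8 in P320 against C, -0.18 with TMM from gene-end peaks. Same-numbered libraries of C and the adapted populations deviated together (correlations of 0.208 to 0.600 over 28 pairs of groups), but not those of P10 and P320 with the others (-0.116 to -0.012), so the numbers did not pair the samples throughout; the replicate block ended the call of 1 of the 53 values, that of the peak 19.1 kb below KRT7 in T160 against C (-1.0). With the block and the window offset 10 lost their call and 1 became called, the KRT19 end peak in T320 against C (-1.03, adjusted p = 0.0162). The 2 libraries per group and counts as low as 8 limit the thin peaks.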
